A study of Mus musculus with 6 samples.

Results

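Of the 6444 DMSO peaks deposited for a map of DNA ends in mouse embryonic fibroblasts, 723 (11.2%, exact Clopper-Pearson 95% interval 10.5 to 12.02%) had their summit within 1 kb of an end of 2 or more protein-coding genes. They were chosen by position alone, from the summit of each peak and the gene coordinates of the RefSeq table of GRCm38.p6, the assembly also called mm10. Summits in a dense region of 2.3 Mb on chromosome 15 were left out by the rule. Of the 723 peaks, 706 reached 2 genes and 17 reached 3 genes. They fell on 710 sets of genes and touched 1412 different protein-coding genes.

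The method, BrITL, adds a biotinylated nucleotide to DNA ends in permeabilised cells and sequences the DNA that streptavidin pulls down. All cells were passage-immortalized fibroblasts with 1 intact Atr allele (ATR+/-) that expressed the survival protein Bcl-xL. The vehicle group had DMSO for 18 h, and the treated group had 1 µM ATR-45, which blocks the checkpoint kinase ATR, together with 0.2 µM aphidicolin, which blocks replicative DNA polymerases, for 18 h. Each group had 2 pull-down samples and 1 input sample, which the deposited files joined into 1 peak list per group, with 491 peaks in the treated list. No value below therefore has a replicate error, peaks of a pooled list are not replicates, and no test across peaks is given. Intervals of shares and medians cover counting error only. The lists hold no expression values, so the cell type was not checked against marker genes.

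Genes of mammals often lie close together. Where neighbours on opposite strands start side by side, a stretch of DNA between or over their starts serves as a bidirectional promoter, and transcription leaves it both ways. Such promoters are known to be rich in CpG and to serve many housekeeping genes, among them genes of DNA repair, the ribosome and the mitochondrion. Neighbours can also lie in tandem, where the end of 1 gene is followed by the start of the next, or tail to tail, where both genes end.

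The promoter sequences of the head-to-head pairs under the DMSO peaks of highest fold are shown as examples of the promoters that these peaks covered. The 2 peaks of higher or equal fold are not shown, since H2ac19 and H3c15 lie on the same strand and the arrangement of Agpat1 and Rnf5 was not known here. The summit lay inside a printed window only at Rita1, and at the other 3 pairs it lay outside both windows. Each run has 250 bases before and 50 bases after a gene start, 5′ to 3′ in the direction of that gene, from RefSeq on GRCm38.p6. Capitals mark matches on either strand to 8 searched motifs: the CCAAT box by its name, the Sp and KLF letters GGGCGG, the ETS letters CCGGAAG, the YY1 letters ATGGCGGC, the NRF1 letters GCGCATGCG, the E-box CACGTG, the TATA box TATAAA and the CRE letters TGACGTCA. No match to the last 4 fell in these windows. The gene start in each window is the transcript start that the promoter table gives, which lies 462 bp from the 5′ end of the gene Cbx3, 306 bp from that of Lpxn, 154 bp from that of Hnrnpa2b1 and at most 48 bp from that of the others.
Ubxn6, chr17:56079284-56079583, minus strand: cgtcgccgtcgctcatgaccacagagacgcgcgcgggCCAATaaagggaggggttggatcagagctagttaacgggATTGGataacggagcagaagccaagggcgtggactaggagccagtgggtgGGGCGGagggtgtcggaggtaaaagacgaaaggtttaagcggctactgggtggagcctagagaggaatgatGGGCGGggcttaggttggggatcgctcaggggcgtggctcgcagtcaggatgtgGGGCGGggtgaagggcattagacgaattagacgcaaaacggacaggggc
Hdgfl2, chr17:56079381-56079680, plus strand: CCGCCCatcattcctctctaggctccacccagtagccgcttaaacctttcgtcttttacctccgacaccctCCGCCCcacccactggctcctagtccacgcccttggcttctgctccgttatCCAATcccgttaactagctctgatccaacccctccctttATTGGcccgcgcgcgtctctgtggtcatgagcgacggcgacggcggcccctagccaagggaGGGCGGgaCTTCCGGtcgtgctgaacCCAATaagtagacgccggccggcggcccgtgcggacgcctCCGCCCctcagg
Rita1, chr5:120612540-120612839, minus strand: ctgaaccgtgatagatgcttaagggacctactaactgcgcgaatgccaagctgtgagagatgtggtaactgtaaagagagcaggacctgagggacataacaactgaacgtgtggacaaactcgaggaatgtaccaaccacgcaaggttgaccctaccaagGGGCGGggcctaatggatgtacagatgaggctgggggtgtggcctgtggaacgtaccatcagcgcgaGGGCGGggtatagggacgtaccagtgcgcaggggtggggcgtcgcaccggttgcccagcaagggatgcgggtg
Ddx54, chr5:120612880-120613179, plus strand: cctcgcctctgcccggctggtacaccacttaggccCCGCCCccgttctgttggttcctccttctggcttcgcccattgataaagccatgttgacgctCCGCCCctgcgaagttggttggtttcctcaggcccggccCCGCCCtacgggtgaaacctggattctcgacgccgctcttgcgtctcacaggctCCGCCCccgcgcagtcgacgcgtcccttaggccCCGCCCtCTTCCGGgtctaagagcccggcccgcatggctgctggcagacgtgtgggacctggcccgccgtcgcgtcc
Cbx3, chr6:51470366-51470665, plus strand: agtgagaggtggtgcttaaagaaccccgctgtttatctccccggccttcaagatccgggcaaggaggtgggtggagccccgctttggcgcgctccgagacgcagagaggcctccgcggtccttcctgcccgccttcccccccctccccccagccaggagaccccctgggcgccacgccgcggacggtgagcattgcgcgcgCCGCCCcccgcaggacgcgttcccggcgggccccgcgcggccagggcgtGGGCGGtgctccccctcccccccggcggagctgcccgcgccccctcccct
Hnrnpa2b1, chr6:51469845-51470144, minus strand: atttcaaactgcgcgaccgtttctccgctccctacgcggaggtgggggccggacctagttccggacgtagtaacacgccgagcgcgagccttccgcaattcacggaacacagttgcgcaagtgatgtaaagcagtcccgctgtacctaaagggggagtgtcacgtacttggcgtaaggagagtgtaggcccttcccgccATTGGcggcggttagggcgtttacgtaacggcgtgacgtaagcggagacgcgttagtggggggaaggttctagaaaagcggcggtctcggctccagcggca
Lpxn, chr19:12795943-12796242, plus strand: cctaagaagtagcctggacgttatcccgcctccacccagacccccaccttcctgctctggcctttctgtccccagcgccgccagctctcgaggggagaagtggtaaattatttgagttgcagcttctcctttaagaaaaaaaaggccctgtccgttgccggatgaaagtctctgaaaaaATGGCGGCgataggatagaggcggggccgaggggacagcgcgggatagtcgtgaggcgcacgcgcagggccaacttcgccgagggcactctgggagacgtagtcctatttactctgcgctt
Zfp91, chr19:12796074-12796373, minus strand: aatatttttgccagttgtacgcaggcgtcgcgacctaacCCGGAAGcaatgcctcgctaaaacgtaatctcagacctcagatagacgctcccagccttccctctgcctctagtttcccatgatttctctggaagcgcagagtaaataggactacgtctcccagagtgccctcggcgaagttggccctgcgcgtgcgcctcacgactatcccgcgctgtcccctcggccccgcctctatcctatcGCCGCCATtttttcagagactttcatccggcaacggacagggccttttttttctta

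The windows of Ubxn6 and Hdgfl2 overlapped, as did those of Lpxn and Zfp91, so part of the same DNA is read from both strands. CpG counts ran from 17 in the Rita1 window to 34 in the Cbx3 and Hnrnpa2b1 windows. The Ddx54 window held 5 matches to GGGCGG, the Hdgfl2 window 4, the Ubxn6 window 3, the Rita1 and Cbx3 windows 2 each, and the other windows none. The CCAAT box was matched 3 times in the Hdgfl2 window, 2 times in that of Ubxn6 and 1 time in that of Hnrnpa2b1. The ETS letters were matched 1 time each in the windows of Hdgfl2, Ddx54 and Zfp91, and the YY1 letters 1 time each in those of Lpxn and Zfp91, which overlap. A match is a description of the letters and not a bound site.

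These peaks lay mostly where genes start, and so did peaks at an end of 1 gene. Of the 2440 DMSO peaks at an end of 1 gene with known strand, 2377 (97.4%) lay at its start. A place at gene starts was thus not particular to peaks at neighbouring genes. The promoter table gave the strand of both nearest genes for 546 of the 723 peaks (75.5%), and in 428 of these (78.4%, interval 74.7 to 81.8%) the nearer end of each gene was its start. In 114 (20.9%, interval 17.5 to 24.5%) it was the start of 1 gene and the end of the other, and 99 of these pairs were on the same strand. In 4 (0.733%, interval 0.200 to 1.87%) both were gene ends. Of the 428 peaks at a pair of starts, 301 lay at head-to-head pairs whose bodies were apart, 119 at head-to-head pairs whose bodies overlapped, and 8 at genes on the same strand.

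The same order was seen when close gene pairs, not peaks, were counted. A summit can lie within 1 kb of both genes only if their ends are within 2 kb of each other. Over the 3 arrangements of such pairs with known strand, 18.1% (547 of 3029) had a DMSO summit within 1 kb of both genes. For head-to-head pairs it was 425 of 1005 (42.3%, interval 39.2 to 45.4%). Start-end pairs had 115 of 975 (11.8%, interval 9.84 to 14.0%), and tail-to-tail pairs had 7 of 1049 (0.667%, interval 0.269 to 1.37%). These intervals did not overlap. Starts with no other protein-coding gene end within 2 kb had a DMSO summit within 1 kb in 2199 of 14070 cases (15.6%, interval 15.03 to 16.2%), and gene ends of this kind in 47 of 13826 (0.340%, interval 0.2499 to 0.4518%). A head-to-head pair holds 2 starts, so its share and that of a lone start do not count the same thing.

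The distance between the starts went with the share. It was 42.7% where the starts of a head-to-head pair were at most 100 bp apart (161 of 377), 55.8% at 101 to 300 bp (159 of 285), 45.6% at 301 to 600 bp (67 of 147) and 34.5% at 601 to 1000 bp (30 of 87). At 1001 to 2000 bp it was 7.34% (8 of 109), a range in which few positions are within 1 kb of both starts. In each of the first 4 ranges the interval for head-to-head pairs lay above that for start-end pairs, which ran from 11.8% to 19.8% there. At 1001 to 2000 bp the intervals overlapped, with 5.85% for start-end pairs.

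**Figure D1:**
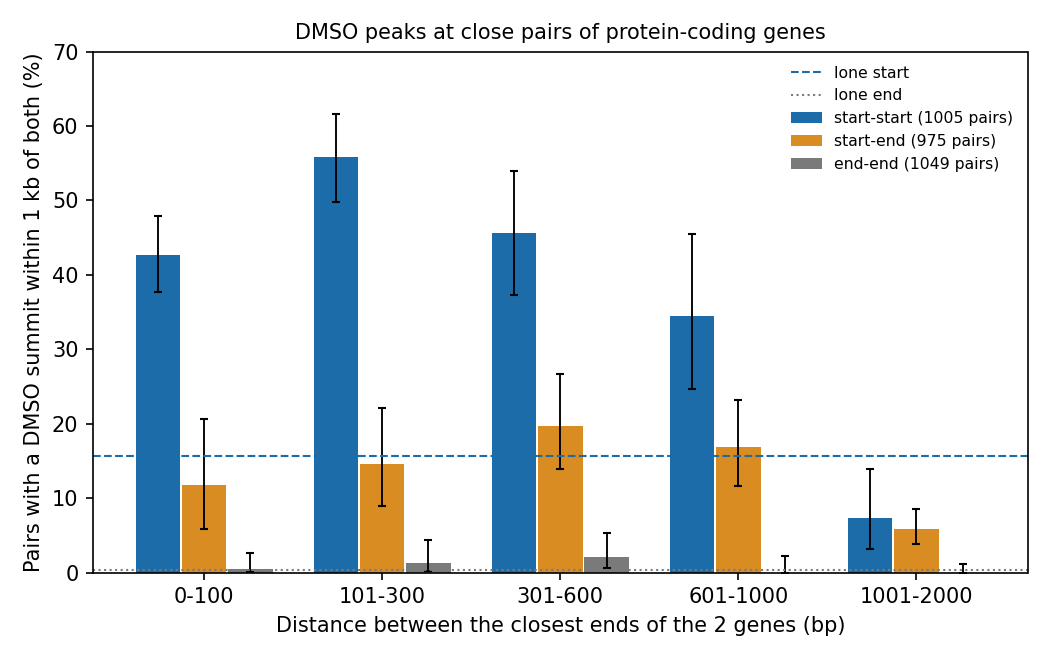
Share of close pairs of protein-coding genes (y axis, percent) with a DMSO summit within 1 kb of both genes, by the distance between their closest ends (x axis, bp) and by arrangement (start-start on opposite strands, start-end, end-end on opposite strands). Bars are shares, error bars are exact 95% binomial intervals, and lines mark lone starts (15.6%) and lone ends (0.340%); head-to-head pairs were highest at 101 to 300 bp (55.8%).

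Peaks at neighbouring gene ends were as strong as peaks at 1 gene end and slightly stronger than those at none. The authors' fold enrichment at the summit, the pull-down over the background of the caller, ran from 6.74 to 32.9, with a median of 11.7 (interval 11.3 to 11.96) and quartiles of 10.2 and 14.4. The median was 11.7 for the 2959 peaks at an end of 1 gene (interval 11.5 to 11.7) and 10.9 for the 2256 peaks at no gene end (interval 10.7 to 10.99), both counted outside the dense region. Behind these folds stood 35 to 134 pull-down fragments at the summit, with a median of 49. At 150 of the 723 peaks (20.8%, interval 17.9 to 23.9%) the background term was above its list-wide level of 2.31 input fragments, against 18.1% at 1 gene end (interval 16.7 to 19.5%) and 34.9% at none (interval 32.96 to 36.9%). Peak width had a median of 2937 bp (interval 2879 to 3013), against 2887 bp at 1 gene end. Of 171 DMSO peaks outside the dense region with a fold over 20, 26 (15.2%, interval 10.2 to 21.5%) lay at neighbouring gene ends, which made up 12.2% of all peaks there. By arrangement, the median fold was 11.9 at pairs of starts, 11.3 at a start and an end, and 9.77 at the 4 peaks on 2 ends, and the intervals of the first 2 medians overlapped.

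**Figure D2:**
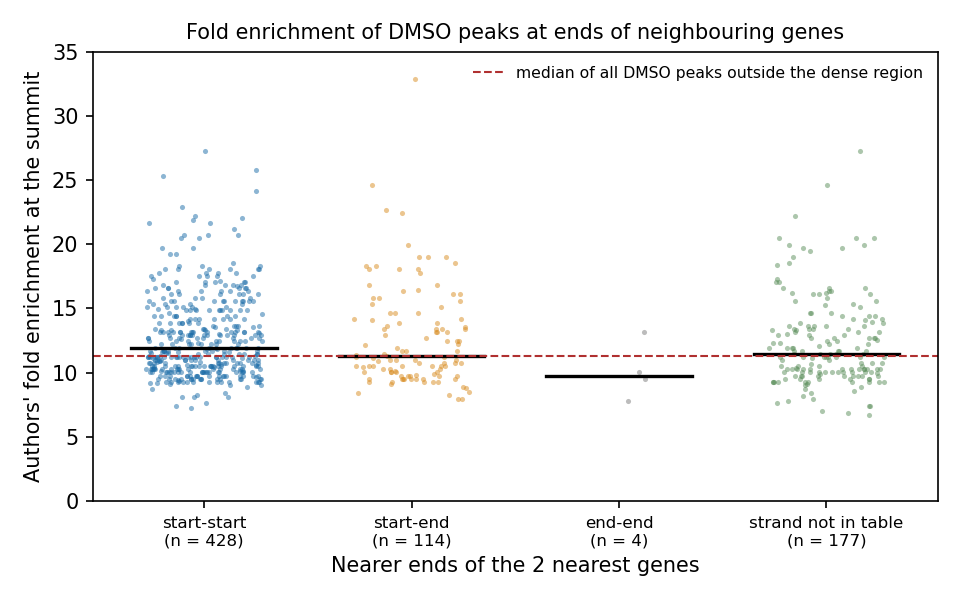
Authors' fold enrichment at the summit (y axis) of each of the 723 peaks, grouped by the nearer ends of the 2 nearest genes (x axis). Points are peaks, black bars are medians (11.9 at start-start, 11.3 at start-end), and the dashed line is the median of all DMSO peaks outside the dense region (11.3).

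The peak of highest fold lay in a histone cluster. With a fold of 32.9 and 134 pull-down fragments it spanned only 187 bp of chromosome 3 (96239555 to 96239741), 130 bp from the end of H2ac19, an H2A gene, and 522 bp from the start of H3c15, an H3 gene. Histone genes have near-identical copies, so reads at such a peak cannot be assigned to 1 copy with certainty. The next were at Agpat1, an enzyme gene of phospholipid synthesis, beside Rnf5, a ubiquitin ligase gene (fold 27.3, chromosome 17, 34601679 to 34607546), and at Ubxn6, whose product works with the p97 ATPase, beside Hdgfl2 (fold 27.3, chromosome 17, 56077192 to 56082228), with 111 fragments each. The peak at Rita1, a Notch pathway gene, and Ddx54, an RNA helicase gene, had a fold of 25.8 and 113 fragments (chromosome 5, 120610922 to 120615300). The peak at Cbx3, a heterochromatin protein gene, and Hnrnpa2b1, a gene for an RNA-binding protein, had 25.3 and 103 fragments (chromosome 6, 51467699 to 51472578).

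The other members of the first 10 were at Mepce, which caps 7SK RNA, beside Zcwpw1 (fold 24.6), at Brpf1, a scaffold of histone acetyltransferases, beside Cpne9 (24.6), at Zfp91 beside Lpxn, a focal adhesion gene (24.1), at Mphosph9 beside 2810006K23Rik (22.9) and at Maz, a zinc finger factor gene, beside the kinesin gene Kif22 (22.6). Of these 10 peaks, 4 lay at head-to-head pairs on the sequences printed above, Mphosph9 and 2810006K23Rik were 1 more head-to-head pair, with overlapping bodies, 3 at a start and an end on the same strand and 2 at genes whose strand was not known here. At the other end of the range were Gm3417 beside 9030025P20Rik (fold 6.74, 147 bp wide), Cbx6 beside Npcd (6.88), Atat1, a tubulin acetyltransferase gene, beside 2310061I04Rik (7.01) and Sugp2 beside Armc6 (7.29).

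The widest peak, 10696 bp, covered Rxrb, a nuclear receptor gene, and the zinc transporter gene Slc39a7 on chromosome 17 (fold 16.3). Other wide peaks lay at Rps18 beside B3galt4 (7990 bp, fold 18.0) and at Zfp36l1, a regulator of mRNA decay, beside Gm52006 (7985 bp, fold 19.005). Only 12 peaks were narrower than 1 kb, and 7 of these were among the 22 peaks at a clustered histone gene, whose median width was 1469 bp. Those 22 peaks lay on chromosome 13 (18) and chromosome 3 (4), and 12 of them had an H2A and an H2B gene as their 2 nearest genes. Histone genes are short, so which of their ends is nearer says little there.

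Summits at head-to-head pairs lay at varied distances from the midpoint of the starts. At 420 peaks on such pairs the median distance from the summit to that midpoint was 228 bp (quartiles 109 and 378 bp). The median gap between the starts was 70.5 bp, with overlapping bodies counted as gaps below 0. This gap is thus not a median distance between the starts. Among peaks at pairs whose bodies did not overlap, 206 had starts 0 to 200 bp apart. Of these, 184 summits (89.3%, interval 84.3 to 93.2%) lay inside 1 of the gene bodies and thus upstream of the other gene. At gaps over 200 and up to 600 bp it was 43 of 78 (55.1%, interval 43.4 to 66.4%), and at more than 600 bp it was 0 of 17, which lay between the starts (interval 0 to 19.5%). The median distance from the midpoint was 262 bp, 200.0 bp and 134 bp in these 3 ranges. The 119 peaks at pairs with overlapping bodies are in none of these ranges. There 88 summits (73.95%, interval 65.1 to 81.6%) lay inside exactly 1 body. At peaks with 1 gene start nearby, 996 of 2377 summits (41.9%, interval 39.9 to 43.9%) were inside the gene, and the median summit lay 79 bp before the start. The position of a summit also depends on the 1 kb rule, since a summit farther out would not have reached both genes. Where the starts are close, most positions within 1 kb of both lie inside a gene body. The shares inside a body therefore depend on the gap itself, and a preference for gene bodies was not tested. A lone start has a body on 1 side only, so its 41.9% does not count the same thing. The peak itself covered both ends in 681 of the 723 cases (94.2%, interval 92.2 to 95.8%).

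**Figure D3:**
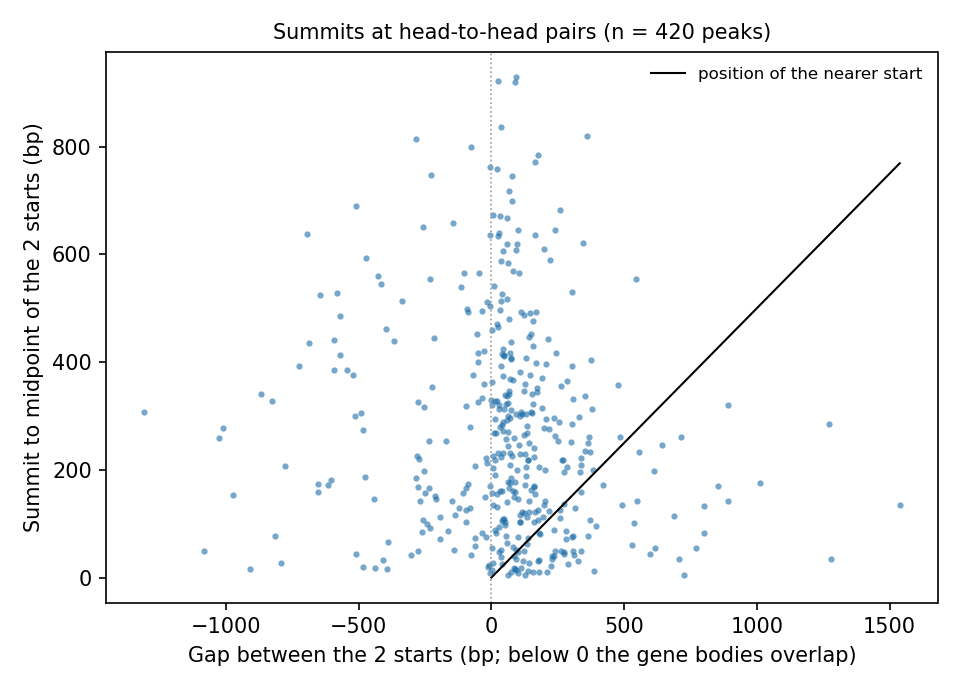
Distance from the summit to the midpoint of both starts (y axis, bp) against the gap between the starts (x axis, bp, below 0 where the bodies overlap), for 420 peaks at head-to-head pairs. Each point is a peak, and points above the line lie inside a gene body: 184 of 206 at gaps of 0 to 200 bp and 0 of 17 above 600 bp.

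The named pairs show the same placement. The summit at Brca1, a gene of homologous recombination, and Nbr1, an autophagy receptor gene, lay 265 bp inside Nbr1 and 417 bp before the start of Brca1, with starts 152 bp apart (fold 15.5, 76 fragments). At Atm, the kinase that signals double-strand breaks, and Npat, a factor for histone gene transcription, it lay 294 bp inside Npat and 355 bp before Atm (fold 11.7, 47 fragments). At Trp53, which encodes p53, and Wrap53 it lay 570 bp inside Wrap53 and 668 bp before Trp53 (fold 10.5, 42 fragments). The summit between Pcna, the sliding clamp of replication, and Cds2 was 90 and 68 bp before the starts and inside neither gene (fold 18.0, 73 fragments).

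At peaks on a start and an end, the summit was nearer the start in 80 of 114 cases (70.2%, interval 60.9 to 78.4%). With genes under 2 kb left out, for which the nearer end is poorly defined, it was 62 of 82 (75.6%, interval 64.9 to 84.4%). The median distance was 302 bp to the start and 488 bp to the end. Examples are Tomm40, the channel of the mitochondrial outer membrane, whose start lay 401 bp from the summit while the end of the adhesion gene Nectin2 lay 801 bp away (fold 22.4), and Brpf1, whose start lay 412 bp away. Maz and Kif22 were close to even, with 278 bp to the start of Maz and 263 bp to the end of Kif22. The 4 peaks at 2 gene ends were at the histone genes H2ac20 and H2ac21, with H2bc21 as a further gene (fold 13.2), at Ndufb10, of the respiratory chain, and Rps2 (10.02), at the GTPase gene Rhoc and Mov10 (9.53) and at Rpl7l1 and 2310039H08Rik (7.77).

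The 17 peaks at 3 genes had folds from 9.11 to 18.0. The highest lay at Atf5, a stress response factor gene, Nup62, a nuclear pore gene, and Il4i1b (18.0). It was followed by Rspry1, Psme3ip1 and LOC115486880 (13.5), by H2ac20, H2ac21 and H2bc21 (13.2), by Stx5a, a Golgi transport gene, Wdr74 and 1700092M07Rik (12.9) and by Frs3, Tomm6 and Prickle4 (12.7).

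At the edge of the rule, the 3 peaks just inside had their second gene 999 bp (Git2 and Ankrd13a, fold 9.54), 993 bp (Ppp1r18 and Nrm, 7.93) and 985 bp away (Mageb3 and Ctdspl2, 17.6). The 3 just outside were at 1001 bp (Sec23a and Gemin2, fold 11.5), 1001 bp (Anapc16 and Ascc1, 10.8) and 1003 bp (Parp3 and Rrp9, 15.4).

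The 1412 genes at these peaks included genes known for bidirectional promoters and for basic cell functions. Over all 21887 protein-coding genes 6.45% were at such a peak, and over the 7048 genes with a close neighbour 20.03% were. Of 12 well-known head-to-head pairs, 8 had a summit within 1 kb of both genes. Besides the pairs with Brca1, Atm and Trp53 they included the chaperone genes Hspd1 and Hspe1 (fold 18.0), the purine synthesis genes Paics and Ppat (14.9), Mrps12 and Sars2 of mitochondrial translation (10.02), and Prkdc, the DNA-dependent kinase, with the helicase subunit gene Mcm4 (9.53). Of all 1005 close head-to-head pairs with known strand, 425 (42.3%) had such a summit, and whether 8 of 12 differs from this was not tested. The list of 12 pairs was chosen for its arrangement, so its count is not independent of the rule.

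Genes of replication and repair were at these peaks in 10 of 49 (ATR and fork genes) and 9 of 42 (double-strand break repair). That is 37.0% of the 27 and 37.5% of the 24 with a close neighbour, against 20.03% of all genes with one. At DMSO peaks of any kind were 22 of the 49 (44.9%) and 14 of the 42 (33.3%), against 19.5% of all protein-coding genes. The ATR and fork genes were led by Mcm7, a helicase subunit gene beside Ap4m1 (fold 22.0, 110 fragments), Pcna (18.0), Zranb3, a fork remodelling gene (14.2), and Rpa1, of the single-strand binding complex (12.2). The repair genes were led by H2ax, the histone variant phosphorylated at breaks (16.1), Brca1 (15.5), Xrcc3 (13.2) and Shld2, of the shieldin complex (12.9). None of the 16 Fanconi anaemia genes was at such a peak. Only 11 of them had a close neighbour, and whether 0 of 11 differs from the 20.03% of all such genes was not tested. At a DMSO peak of any kind were 3 of the 16 (18.75%), near the 19.5% of all protein-coding genes.

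Splicing, chaperone and translation genes were also found. Many of them were at DMSO peaks of any kind too, namely 29 of 38 SR and hnRNP genes (76.3%), 22 of 37 chaperone genes (59.5%) and 33 of 77 cytosolic ribosomal protein genes (42.9%), against 19.5% of all protein-coding genes. Of 38 SR and hnRNP genes 10 were at these peaks, or 55.6% of the 18 with a close neighbour, led by Hnrnpa2b1 (25.3), Hnrnpa1 beside the heterochromatin gene Cbx5 (21.9), Hnrnpll (18.5) and Hnrnpdl (18.3). Chaperone genes gave 10 of 37, or 50% of the 20 with a close neighbour, with Hsp90b1 of the endoplasmic reticulum (17.8) and the chaperonin gene Cct3 (13.9) after Hspd1 and Hspe1. Cytosolic ribosomal protein genes gave 11 of 77 (27.5% of 40 with a close neighbour), mitochondrial ones 11 of 78 (22% of 50), tRNA synthetase genes 6 of 37 (31.6% of 19) and subunits of NADH dehydrogenase 9 of 40 (31.03% of 29). The mitochondrial share was near the 20.03% of all genes with a close neighbour. At any DMSO peak were 23.1% of the mitochondrial genes, 32.4% of the synthetase genes and 32.5% of the NADH dehydrogenase genes. The highest folds were at Rps18 (18.0) among the cytosolic ribosomal genes, at Mrps18b (21.7) and Mrpl2 (16.8) among the mitochondrial ones, at Vars (19.7) and Yars (17.5), the synthetases for valine and tyrosine, and at Ndufa11 (15.1) of NADH dehydrogenase. Proteasome subunits gave 1 of 31, Psma2 (8.30), which is 8.33% of the 12 with a close neighbour, and 6 of the 31 (19.35%) were at any DMSO peak. Clustered histone genes gave 36 of 66 (70.6% of the 51 with a close neighbour), and 50 of the 66 (75.8%) were at any DMSO peak.

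Lists of regulated or cell-type genes gave counts on both sides of the 6.45% of all genes. Of 35 AP-1 and immediate early genes 7 had a close neighbour, and 2 of the 35 (28.6% of those 7) were at these peaks, Ier3 (fold 19.98) and Zfp36l1 (19.005), while 17 of the 35 (48.6%) were at a DMSO peak of any kind. Of 37 fibroblast matrix and cytoskeleton genes 7 had a close neighbour, 0 were at such a peak and 11 (29.7%) were at a DMSO peak of any kind. Cyclin, CDK and mitosis genes gave 2 of 44, Ccna2 (13.4) and Aurka (10.75), which is 14.3% of the 14 with a close neighbour, and 23 of the 44 (52.3%) were at any DMSO peak. The p53 response genes gave 3 of 28 (37.5% of the 8 with a close neighbour), Sesn1 and Polk (13.2 each) and Xpc (10.3). Replacement histone genes gave 3 of 9 (75% of the 4 with a close neighbour), H2ax, H1f0 (12.45) and H2az1 (9.51). Of 27 long genes of common fragile sites 1 was at such a peak, Dlg2 beside Tmem126b (11.96), 2 genes that start side by side. At a DMSO peak of any kind were 13 of the 28 p53 response genes (46.4%) and 5 of the 9 replacement histone genes (55.6%). The long genes gave 5 of 27 (18.5%), and all protein-coding genes 19.5%.

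The promoters under these peaks were rich in CpG. Of 844 windows at starts of the start-start peaks, 85.7% (interval 83.1 to 88.0%) had a GC content of at least 50% with a ratio of observed to expected CpG of at least 0.6. It was 85.8% (interval 84.3 to 87.2%) of 2342 starts at peaks with 1 gene, 68.4% (interval 65.5 to 71.2%) of 1085 starts of head-to-head pairs without any DMSO peak and 45.8% of all 17492 windows. GGGCGG was found in 70.02% of windows at start-start peaks (interval 66.8 to 73.1%), against 56.7% at pairs without a peak, 80.2% at peaks with 1 gene and 46.3% of all windows. The CCAAT box was found in 47.7% (interval 44.3 to 51.2%), against 35.5%, 46.0% and 39.2% in the same order. CCGGAAG was found in 25.5% (interval 22.6 to 28.6%), close to the 25.7% at head-to-head pairs without a peak (interval 23.1 to 28.4%) and above the 16.4% at peaks with 1 gene (interval 14.9 to 18.0%) and the 11.9% of all windows. The YY1 letters (6.52%), the E-box (12.9%), the NRF1 letters (4.98%) and the CRE letters (4.50%) were found in 3.21%, 7.91%, 2.41% and 2.33% of all windows. At peaks with 1 gene the same letters were in 5.81%, 11.96%, 5.30% and 3.76%, and at head-to-head pairs without a peak in 7.47%, 9.12%, 3.41% and 2.58%. The TATA box was in 4.98% at start-start peaks, 4.87% at peaks with 1 gene, 6.27% at pairs without a peak and 13.3% of all windows. At the 114 starts of the start-end peaks, 68.4% of windows were CpG-rich (interval 59.05 to 76.8%), 12.3% held CCGGAAG (interval 6.88 to 19.8%) and 12.3% the TATA box (interval 6.88 to 19.8%). Windows of a head-to-head pair overlapped at 285 of 428 peaks, so they are not independent.

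**Figure D4:**
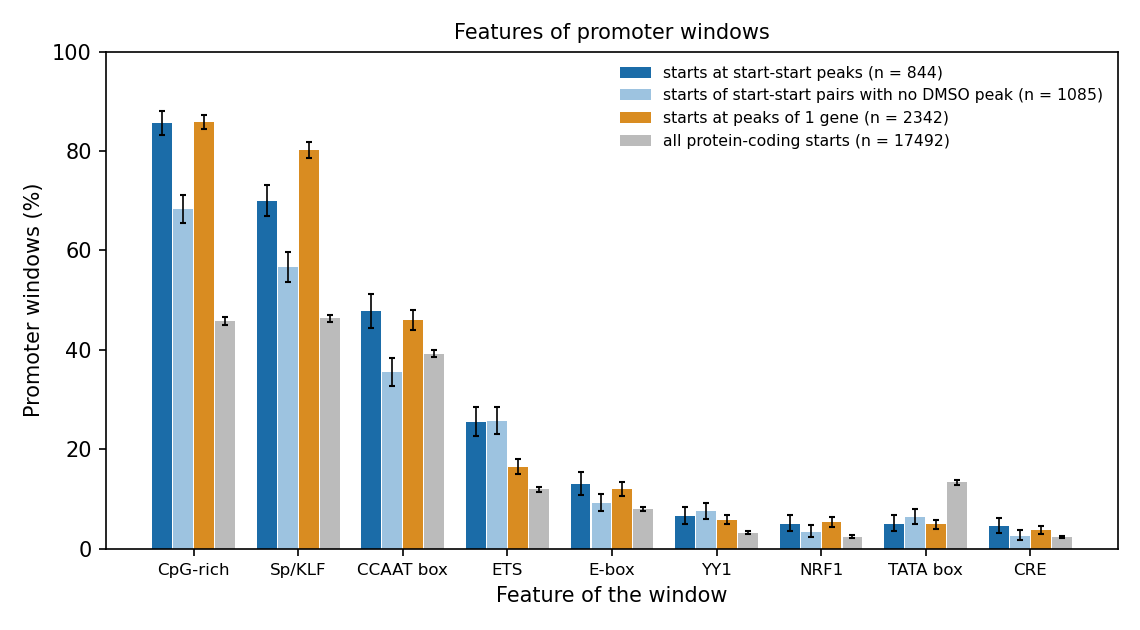
Share of promoter windows (y axis, percent) that are CpG-rich or hold each motif (x axis), at starts of the start-start peaks, at head-to-head pairs with no DMSO peak, at peaks with 1 gene, and over all windows. Error bars are exact 95% binomial intervals; CpG-rich windows made up 85.7% at start-start peaks and 68.4% at pairs without a peak, while CCGGAAG differed little between those groups (25.5% and 25.7%).

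Few of these peaks met a peak of the treated list. Of the 723, 21 (2.90%, interval 1.81 to 4.41%) overlapped a treated peak by at least 1 bp, against 2.61% of all 5938 DMSO peaks outside the dense region and 3.04% of those at 1 gene end (interval 2.45 to 3.73%). The share is thus near that of the whole list. With treated peaks of −log10 q of at least 5 it was 1.38% (interval 0.665 to 2.53%), against 1.06% of the whole list outside the dense region. Among DMSO peaks at or above the median −log10 q it was 5.17% (interval 3.23 to 7.80%), against 4.82%. It went with fold: in the highest 20% of the DMSO list by fold it was 18 of 173 (10.4%, interval 6.28 to 15.9%), against 12.8% at 1 gene end (interval 10.4 to 15.6%) and 7.69% at no gene end (interval 5.17 to 10.9%), and these intervals overlapped. Below that, 3 of these peaks met a treated peak.

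The treated peaks met by these 21 had folds of 4.19 to 7.05 in their own list, with a median of 5.16. The highest was again at H2ac19 and H3c15 (7.05), followed by Zfp91 and Lpxn (6.51), Tomm40 and Nectin2 (6.51), Mrps18b, of the mitochondrial ribosome, and Ppp1r10, a phosphatase regulator (5.70), Atf5, Nup62 and Il4i1b (5.70), Rita1 and Ddx54 (5.70), Hnrnpul2 and Ttc9c (5.57), Nfya, a subunit of the factor that binds CCAAT, with Oard1 (5.43), Maz and Kif22 (5.36) and Ubxn6 and Hdgfl2 (5.30). At 18 of the 21 the treated summit lay within 500 bp of the DMSO summit, and the median distance was 180.0 bp. Pcna with Cds2 (5.16) and Mcm7 with Ap4m1 (4.94) were also among them. Of the 10 peaks of highest DMSO fold, those at Cbx3 and Hnrnpa2b1, at Mepce and Zcwpw1, at Brpf1 and Cpne9 and at Mphosph9 and 2810006K23Rik met no treated peak. The lists did not reach down to the same significance (lowest −log10 q 18.5 for DMSO and 3.38 for the treated list), so absence from the treated list is not by itself a difference between the conditions.

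**Figure D5:**
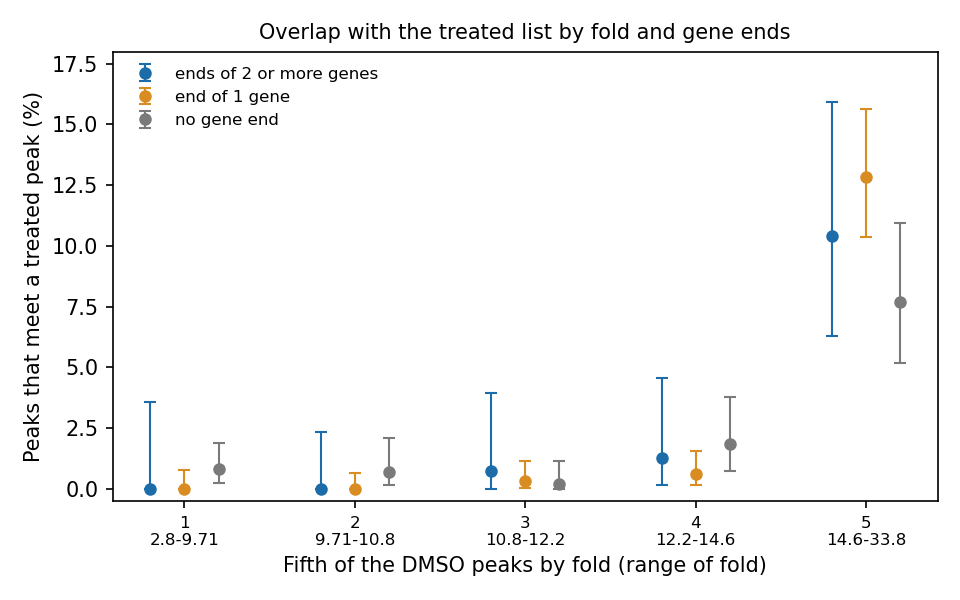
Share of DMSO peaks that meet a treated peak (y axis, percent) in 5 classes of the DMSO list by fold (x axis, with the range of fold), for peaks at ends of 2 or more genes, at an end of 1 gene and at no gene end. Points are shares and error bars are exact 95% binomial intervals; in the highest class they were 10.4%, 12.8% and 7.69% with overlapping intervals.

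The share of close gene pairs with a summit was highest on chromosome 13 and lowest on X. Of pairs with known strand, 33 of 109 on chromosome 13 (30.3%, interval 21.8 to 39.8%), which holds many histone genes, 46 of 184 on chromosome 5 (25%, interval 18.9 to 31.9%), 32 of 129 on chromosome 3 (24.8%, interval 17.6 to 33.2%) and 51 of 215 on chromosome 17 (23.7%, interval 18.2 to 29.98%) had a summit within 1 kb of both genes. On X it was 3 of 77 (3.90%, interval 0.811 to 10.97%), against 18.1% overall. The intervals of chromosomes 13, 5, 3 and 17 overlapped. Next lowest after X were 12 of 105 on chromosome 12 (11.4%, interval 6.05 to 19.1%) and 8 of 67 on chromosome 15 (11.9%, interval 5.30 to 22.2%). Their intervals overlapped that of X. These shares pool the 3 arrangements, so they depend on the mix of arrangements on each chromosome, and a difference between chromosomes was not tested. Strands of genes on chromosome 18 were not used here, so the 8 peaks on chromosome 18 enter no share by arrangement. The 3 peaks on X lay at Tspyl2 and Gpr173 (fold 10.3), at Hnrnph2 and Gla, the gene of the enzyme lacking in Fabry disease (9.51), and at Idh3g, a subunit of a citric acid cycle enzyme, and Ssr4 (9.29).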

How the data were processed

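The 6 samples were vehicle and treated fibroblasts, each with 2 pull-downs and 1 input. The authors deposited 1 peak list per condition, which the peak names describe as all pull-downs against all inputs. Tools named in the submitters' processing notes are MACS2 2.1.0, Picard 1.141, SAMtools 0.1.19, STAR 2.5.2a and bcl2fastq 2.17.1.14, on mm10. Their roles, their settings and the threshold of the lists are not given in the sources here. The deposited fold is a ratio of pull-down to background at the summit, the deposited −log10 p and −log10 q values are the caller's p-value and q-value, and the deposited score is the whole part of 10 times −log10 p. All are the authors' own values and describe peaks within a list. Read totals are unknown.

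Peaks were chosen by distance from summit to gene end (at most 1 kb, at least 2 protein-coding genes, RefSeq table of GRCm38.p6). Strand came from the promoter table, which held 17492 of the 21887 protein-coding genes. Where a gene had several windows, the one nearest its 5′ end was used. Fragments at each summit were recovered by inverting the caller's fold and Poisson p, which solved 100% of peaks and, on 300 simulated peaks per list, was right for 100%. The simulated peaks were made with the formula that was inverted, so they could not show whether the caller used it. Their background was the list-wide level or a whole number of fragments. The background was 2.31 input fragments and 2.88 pull-down fragments for DMSO. The code that assigns start-start, start-end and end-end was right on 100% of 200 simulated gene pairs. Those genes were long and lay apart, with the summit between their ends. Overlapping bodies, short genes, summits elsewhere and the split of start pairs by strand and overlap were not simulated. Intervals are exact Clopper-Pearson at 95%, and intervals of medians come from binomial ranks.

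The members, the 15 written gene lists and 3 families taken by symbol (mitochondrial ribosomal proteins, NADH dehydrogenase, clustered histones) were chosen with earlier results of these data known. Named peaks were the 10 of highest fold, the 10 of highest treated fold, those at most genes, the widest and weakest, those at the edge of the rule, and the leading ones per list and arrangement. A few peaks that this rule names are not reported here. Python 3.11.15, NumPy 2.4.6, SciPy 1.17.1, pandas 2.3.3 and Matplotlib 3.10.9 were used.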

Additional observations from a re-analysis of the deposited data

Results flagged for a closer look

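At 6 of the 723 peaks (0.830%) the recovered background term was at least 2 times its DMSO level of 2.31 fragments. Whether this exceeds counting error was not tested. The background term was 6 fragments at Pa2g4 and Erbb3. It was 5 fragments at Bbip1 and Shoc2, at Akt1s1 and Tbc1d17, at Atat1 and 2310061I04Rik, at Npcd and Cbx6, and at Gm3417 and 9030025P20Rik. Their folds ran from 6.74 (Gm3417) to 10.1 (Bbip1). The share was 0.946% at peaks with 1 gene end and 4.30% at peaks with none.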

How the results depend on the processing

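Of 32 alternatives, 21 stayed within 1.5 times a count or within the interval of a share or median. The number of peaks was 467 at 500 bp and 1315 with all genes of the table, against 723. The share at a pair of starts was 87.7% at 500 bp and 66.8% at 2 kb, against 78.4%, and the cause was not tested. The share that met a treated peak was 1.38% with treated peaks of −log10 q of at least 5, against 2.90%. Among DMSO peaks at or above the median −log10 q it was 5.17%, also against 2.90%. The median fold of the peaks kept by this cut was 13.9, against 11.7. Fold and q both rest on the pull-down and background at the summit, so a cut on q selects for high fold. In the 250 bases before the start alone, GGGCGG was in 66.1%, CCGGAAG in 19.7%, CACGTG in 10.1% and ATGGCGGC in 4.03% of windows, against 70.02%, 25.5%, 12.9% and 6.52% in the window with the 50 bases after the start. No paired analysis was possible because the peak lists carry no value per replicate. None of the 723 peaks rested on fewer than 35 pull-down fragments, and weaker sites could not be counted.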
